A study of Mus musculus with 14 samples.

Results

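Clu, Ly6a, Anxa1, Anxa3, Il33, Areg, Ereg and Hbegf are 8 genes that mark an injured and repairing intestinal epithelium, 5 of them regenerative epithelium genes (Clu, Ly6a, Anxa1, Anxa3 and Il33) and 3 of them ligands of the EGF receptor family (Areg, Ereg and Hbegf). They were chosen by name, with results of these data known, and selected on the difference between genotypes after dextran sulfate sodium (DSS), in which Clu was lower in the knockout without overlap. All 8 are among the 54378 genes that both deposited tables list, and all 8 passed the filter on low counts in both.

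The RNA-seq data cover the colon of 14 mice, of 2 genotypes and in 2 experiments. In the first, 4 wild-type (WT) mice and 4 MiR-29ab1-/- (KO) mice were kept without DSS. In the second, 3 WT mice and 3 KO mice had 3 days of 3.5% DSS, a detergent-like polymer that is toxic to the colon epithelium. The KO mice carried a germline deletion of the gene cluster of miR-29a and miR-29b-1, which is missing from every cell of the body, and the WT mice served as controls in each experiment. All mice were C57BL/6N per the labels, 8 to 12 weeks old per the methods of the study, and the study used both sexes. The labels call the tissue crypts of the small intestine and the methods call it colon. Colon markers were high (Car1 at 2220 to 4925 CPM and Hoxb13 at 146 to 267 CPM, means of the 4 groups), and the 9 small intestine markers summed to 160.1 to 504 CPM per mouse. Most of that sum was Fabp2 (159 to 343 CPM in the group means), with Alpi at 13.7 to 27.6 CPM, whereas Apoa4 (at most 0.0247 CPM) and Lct (at most 0.154 CPM) were near 0. The tissue is called colon here, after the methods, and this names the organ only. Labels and methods also differ on whether crypts or whole colon were taken. Epithelial markers far exceeded those of smooth muscle and endothelium (values below), so the name does not stand for RNA of the whole colon wall.

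When the colon epithelium is injured, surviving cells leave the ordinary stem cell programme for a fetal-like one that is recognised by Clu, Ly6a (Sca-1) and annexins, and this state is linked to YAP and its TEAD partners. Clusterin, the product of Clu, is a secreted chaperone that also marks a rare revival stem cell. Amphiregulin, epiregulin and HB-EGF, the products of Areg, Ereg and Hbegf, are made as membrane proteins, are cut loose by ADAM proteases, and bind EGFR and its relatives, which switch on the ERK pathway and the regrowth of the epithelial sheet.

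The knockout deletes both miRNA genes of the locus on chromosome 6, and the mature sequences are shown because their shared seed, bases 2 to 8 in capitals, is what was searched for in the 8 genes. The sequences are from RefSeq on GRCm38.p6. The same seed is carried by miR-29c-3p of chromosome 1, where a further copy of miR-29b-3p is also annotated, outside the locus named in the knockout.
miR-29a-3p (chr6:31062673-31062694, minus strand): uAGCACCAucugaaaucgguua
miR-29b-3p (chr6:31063025-31063047, minus strand): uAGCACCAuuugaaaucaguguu
miR-29c-3p (chr1:195037600-195037621, plus strand): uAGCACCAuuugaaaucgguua
In the longest annotated 3′ UTR of each gene (GENCODE vM21), matches to TGGTGCTA (8mer), TGGTGCT (7mer-m8) or GGTGCTA (7mer-A1) were searched for on the transcript strand. Of the 8 genes, 6 held none: Clu, Ly6a, Anxa1, Il33, Areg and Ereg, with UTRs of 230 to 3501 bases. Anxa3 held 1 7mer-m8 match at base 640 of a UTR of 882 bases, and Hbegf held 1 7mer-A1 match in a UTR of 1456 bases. Among all 21028 protein-coding genes with a 3′ UTR, of median length 961 bases, 3371 held at least 1 match. The match in Anxa3 is shown with the matching bases in capitals. A match is a description of letters, not evidence of binding.
Anxa3 3′ UTR (chr5:96825652-96825673, plus strand, GRCm38): tcacacttgcactgTGGTGCTc

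Libraries held 14231157 to 18185020 reads on genes without DSS and 20076719 to 23153149 after DSS. Levels are given as CPM, reads scaled to a common library size with TMM factors of all 14 mice, and a count of 3 reads was 0.130 to 0.211 CPM. Epithelial markers such as Epcam, Krt8 and Krt20 were high in all 14 libraries, whereas the 6 smooth muscle markers summed to 1.09 to 4.06 CPM and the 5 endothelial markers to 1.03 to 5.97 CPM. The miRNA precursors themselves had 0 or 1 read in every library, so they check no label. Lncpint, a long noncoding RNA gene on the same strand just upstream of the deleted locus, separated the genotypes, with 706 to 2889 reads in the KO mice and 6 to 23 reads in the WT mice. After DSS, KO mice 1 and 2 had 14.8% and 20.2% of their reads on mitochondrial genes, above the 6.15 to 8.81% of the other 4 mice of that experiment (without DSS the range was 5.70 to 13.9%). The genotype differences of the 8 genes after DSS are given with and without these 2 mice. When both are left out, KO mouse 3 is the only KO mouse after DSS. Such values therefore show only where that mouse lay against the WT mice.

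**Figure D1:**
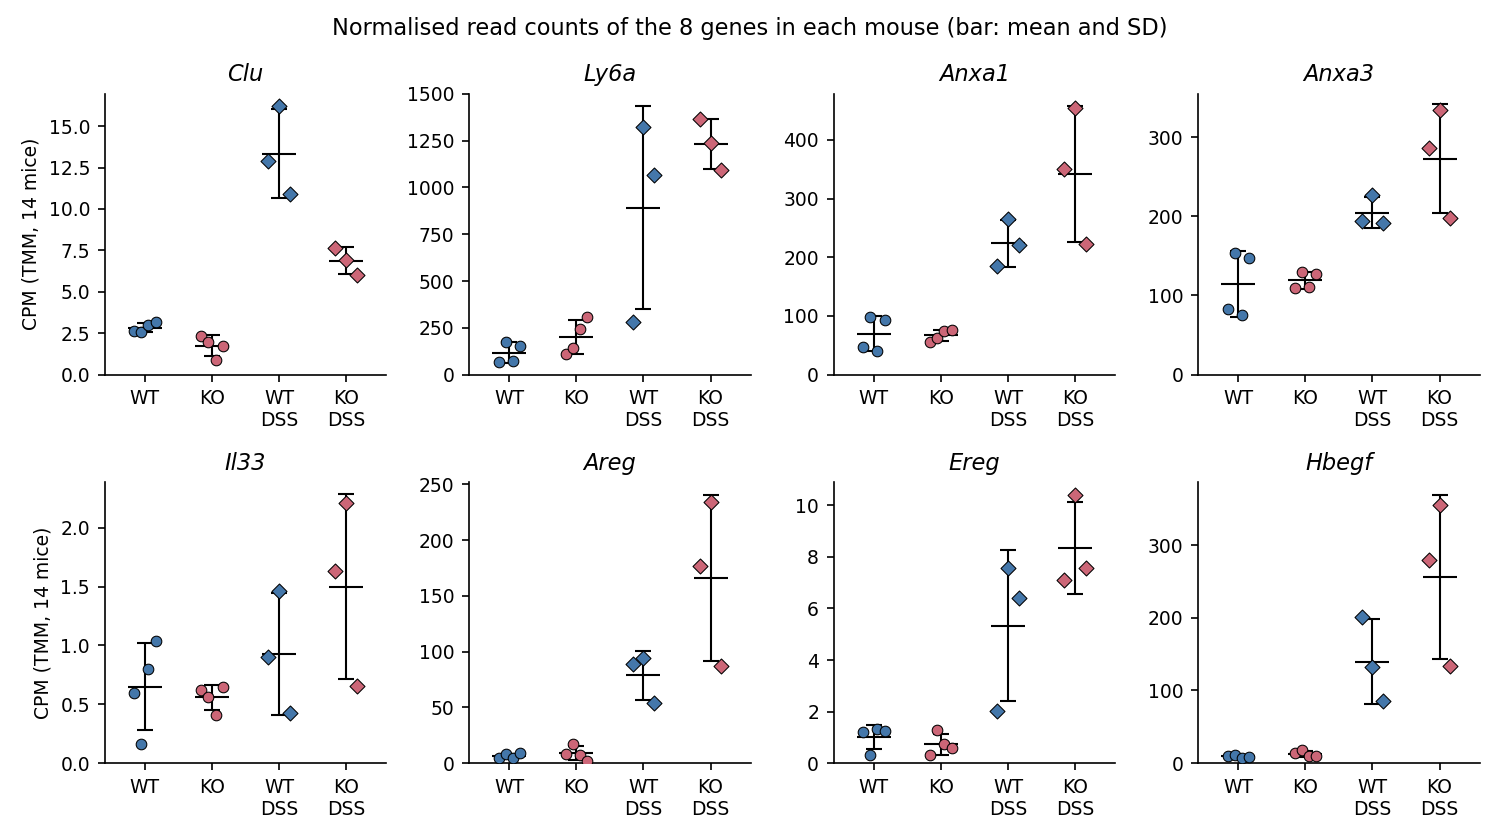
Normalised read counts (CPM, linear axes from 0) of the 8 genes in each mouse, with circles for mice without DSS, diamonds for mice after DSS, blue for WT and red for KO. Horizontal lines are group means and error bars are SDs (n = 4 without DSS, n = 3 after DSS). The 3 KO mice after DSS lie at 6.02 to 7.67 CPM of Clu, below the 10.9 to 16.2 CPM of the 3 WT mice, whereas in the other 7 panels the genotypes after DSS overlap.

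Clu was the only one of the 8 genes in which KO and WT mice did not overlap, and it was lower in the KO in both experiments. Without DSS, Clu was at 2.62, 2.59, 2.97 and 3.17 CPM in the 4 WT mice and at 2.36, 1.97, 0.872 and 1.75 CPM in the 4 KO mice. These values rest on 47 to 61 reads in WT and 15 to 38 reads in KO. Every KO mouse was below every WT mouse, and KO mouse 3 was the lowest. The KO level was 1.63-fold lower (log2 fold change -0.71, SE 0.30), with an unadjusted p of 0.0401 and an adjusted p of 1.00 (edgeR's quasi-likelihood test), so the difference did not pass the correction. Of all genes tested without DSS, 3.67% had an unadjusted p under 0.05, and 0.900% were lower in the KO without overlap of the genotypes. Without KO mouse 3 the log2 difference was -0.48, and over all alternatives its adjusted p was 0.902 to 1.00.

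After DSS, Clu was at 12.9, 16.2 and 10.9 CPM in the 3 WT mice and at 7.67, 6.93 and 6.02 CPM in the 3 KO mice, from 116 to 345 reads. The highest KO mouse was below the lowest WT mouse. The KO mean was 1.95-fold lower than the WT mean on the fitted scale (log2 fold change -0.96, SE 0.20), a description, because this contrast chose the gene. Of all genes tested after DSS, 6.03% were lower in the KO without overlap. Leaving out each of the 6 mice in turn gave log2 differences of -1.09 to -0.80, and without KO mice 1 and 2, which have the high mitochondrial share, -1.15. In bulk RNA, fewer cells that make a transcript and less RNA per cell cannot be told apart. The 6 enteroendocrine markers, none at 0, summed to less in the KO than in the WT in both experiments without overlap (76.7 to 94.3 against 130.2 to 202 CPM without DSS, and 87.1 to 121 against 126 to 153 CPM after DSS), with an r of -0.15 with Clu within groups. Most of this sum was Chga and Chgb (group means of 32.6 to 62.0 and 52.6 to 98.4 CPM). The other markers were at most 2.03 CPM, and Isl1 was higher in the KO without DSS (1.05 against 0.875 CPM). The 5 mast cell markers, mostly Kit, overlapped without DSS (155 to 221 CPM in KO and 124 to 216 CPM in WT) and were lower in the KO without overlap after DSS (38.7 to 52.9 against 64.1 to 70.5 CPM), with an r of 0.31 with Clu and -0.86 with Anxa1. In the group means Kit was at 42.6 to 177 CPM and Mcpt1 at 2.32 to 8.68 CPM, whereas Cpa3 and Fcer1a were at most 0.273 and 0.205 CPM. The sum is thus close to a level of Kit, and whether Kit stands for mast cells here was not tested. The 5 tuft cell markers, none at 0, were higher in the KO without overlap without DSS (99.5 to 145 against 53.8 to 97.5 CPM) and overlapped after DSS, with an r of -0.23 with Clu. The part of these cells in the values of Clu and Anxa1 was not tested. The 6 fibroblast markers overlapped between genotypes in both experiments (3.72 to 31.9 and 5.46 to 21.1 CPM without DSS, 16.8 to 50.3 and 21.5 to 35.4 CPM after DSS, KO and WT in turn). Their r with Clu within groups was 0.53, and that of the mesothelial markers was 0.41 and of the colon epithelium markers -0.59. The part of these cells in the values of Clu was not tested either.

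Ly6a, which encodes the surface protein Sca-1, was the highest of the 8 genes per length in every group. Without DSS it was at 68.7, 176, 74.2 and 153 CPM in the WT mice and at 108, 143, 245 and 308 CPM in the KO mice. WT mice 2 and 4 lay within the KO range and WT mice 1 and 3 below it. The log2 difference was 0.78 (SE 0.43, adjusted p = 1.00). After DSS it was at 283, 1325 and 1064 CPM in WT and at 1365, 1236 and 1095 CPM in KO. WT mouse 1 stood far below the other 5 mice, which lay within 1064 to 1365 CPM of each other. The log2 difference was 0.46 (SE 0.55), without WT mouse 1 it was 0.04, so that mouse carried nearly all of it, and without KO mice 1 and 2 it was 0.30. Ly6a belongs to a family of similar genes on chromosome 15, and how reads that match several members were counted is not given in the sources used here, so its level carries that uncertainty.

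Anxa1 and Anxa3 encode annexins, proteins that bind membranes in the presence of calcium, and Anxa1 also signals through formyl peptide receptors to end inflammation. Anxa1 was at 48.0, 97.8, 39.8 and 93.1 CPM in the WT mice without DSS and at 55.5, 62.6, 73.8 and 76.3 CPM in the KO mice. Anxa3 was at 83.3, 154, 74.8 and 147 CPM in the same WT mice and at 109, 130.1, 111 and 127 CPM in the KO mice. In both genes WT mice 2 and 4 lay above the whole KO range and WT mice 1 and 3 below it. The log2 differences were -0.05 for Anxa1 (SE 0.29) and 0.07 for Anxa3 (SE 0.22), both with an adjusted p of 1.00, and the sign of each changed when single mice were left out. The epithelial markers were also higher in WT mice 2 and 4 (sums of 12799 and 13320.2 CPM) than in WT mice 1 and 3 (9385 and 9663 CPM).

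After DSS, Anxa1 was at 185, 265 and 221 CPM in WT and at 350.3, 454 and 222 CPM in KO. Anxa3 was at 194, 227 and 192 CPM in WT and at 286, 334 and 198 CPM in KO. In both, KO mice 1 and 2 were above every WT mouse and KO mouse 3 was inside the WT range. The log2 differences were 0.61 for Anxa1 (SE 0.26) and 0.41 for Anxa3 (SE 0.18). Without KO mouse 2 they were 0.35 and 0.24, and without both KO mice of high mitochondrial share they were -0.01 and -0.05.

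Il33 encodes an alarmin, a cytokine that damaged cells release, and it was covered by the fewest reads after DSS. Without DSS it was at 0.593, 0.166, 0.804 and 1.04 CPM in WT and at 0.620, 0.562, 0.407 and 0.649 CPM in KO, from 3 to 20 reads a mouse. After DSS it was at 0.898, 1.46 and 0.427 CPM in WT and at 1.63, 2.21 and 0.658 CPM in KO, from 8 to 37 reads. The genotypes overlapped in both experiments. The log2 differences were -0.22 without DSS (SE 0.49, adjusted p = 1.00) and 0.66 after DSS (SE 0.56), and the latter ran from 0.27 without KO mouse 2 to 1.14 without WT mouse 2 and was -0.50 without KO mice 1 and 2.

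Areg, a low-affinity ligand of EGFR, was at 4.74, 7.84, 4.88 and 8.79 CPM in the WT mice without DSS and at 8.55, 17.2, 7.03 and 2.08 CPM in the KO mice. KO mouse 2 was the highest of the 8 mice and KO mouse 4 the lowest, so the KO range enclosed the WT range. The log2 difference was 0.41 (SE 0.52, adjusted p = 1.00), and without KO mouse 2 it was -0.14. After DSS, Areg was at 88.7, 94.2 and 53.9 CPM in WT and at 177, 234 and 86.7 CPM in KO. KO mice 1 and 2 were above every WT mouse, and KO mouse 3 lay between WT mice 1 and 3. The log2 difference was 1.07 (SE 0.42), the largest increase among the 8 genes in this comparison, and without KO mice 1 and 2 it was 0.13.

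Hbegf, which also binds heparan sulfate on the cell surface, was at 10.3, 10.7, 7.79 and 7.91 CPM in the WT mice without DSS and at 13.6, 18.5, 10.1 and 9.53 CPM in the KO mice. KO mice 1 and 2 were above every WT mouse and the other two lay inside the WT range. The KO level was 1.41-fold higher (log2 fold change 0.49, SE 0.22), with an unadjusted p of 0.0465 and an adjusted p of 1.00, so it did not pass. Without KO mouse 2 the log2 difference was 0.28. After DSS, Hbegf was at 201, 132 and 84.8 CPM in WT and at 279.7, 355 and 134 CPM in KO, with KO mouse 3 inside the WT range. The log2 difference was 0.88 (SE 0.48), and without KO mice 1 and 2 it was -0.06.

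Ereg, whose product binds EGFR and ERBB4, was at 1.19, 0.331, 1.31 and 1.25 CPM in the WT mice without DSS and at 0.310, 1.29, 0.756 and 0.584 CPM in the KO mice, from 5 to 26 reads. The ranges overlapped, and the log2 difference was -0.46 (SE 0.51, adjusted p = 1.00), with -0.21 without KO mouse 1 and -0.87 without KO mouse 2. After DSS it was at 2.03, 7.57 and 6.40 CPM in WT and at 7.09, 10.4 and 7.57 CPM in KO. WT mouse 1, which was also lowest in Ly6a, stood apart below the others. The log2 difference was 0.65 (SE 0.44) and without WT mouse 1 it was 0.25, while without KO mice 1 and 2 it was 0.50.

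Counted over the 8 genes, 0 passed an adjusted p under 0.05 between genotypes without DSS and 2 (Clu and Hbegf) had an unadjusted p under 0.05. DESeq2 gave an adjusted p for 7 of the 8 and called 0, and limma on log2 FPKM called 0 of the 8. Over all 15441 genes tested, 3 (0.0194%) were called higher in the KO and 0 lower by edgeR's test, among 566 with an unadjusted p under 0.05. The 8 log2 fold changes were positive in 4 and negative in 4, with a median of 0.01 against -0.00 over all genes. After DSS, 7 of the 8 were higher in the KO and Clu was lower, with a median log2 fold change of 0.63 against -0.01 over all 14908 genes, of which 2 (0.0134%) were called higher and 0 lower, while 7.23% had an unadjusted p under 0.05. All 7 higher genes overlapped between genotypes. With KO mice 1 and 2 left out, so that KO mouse 3 stood alone, the values of Anxa1, Anxa3, Il33 and Hbegf were at or below 0.

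**Figure D2:**
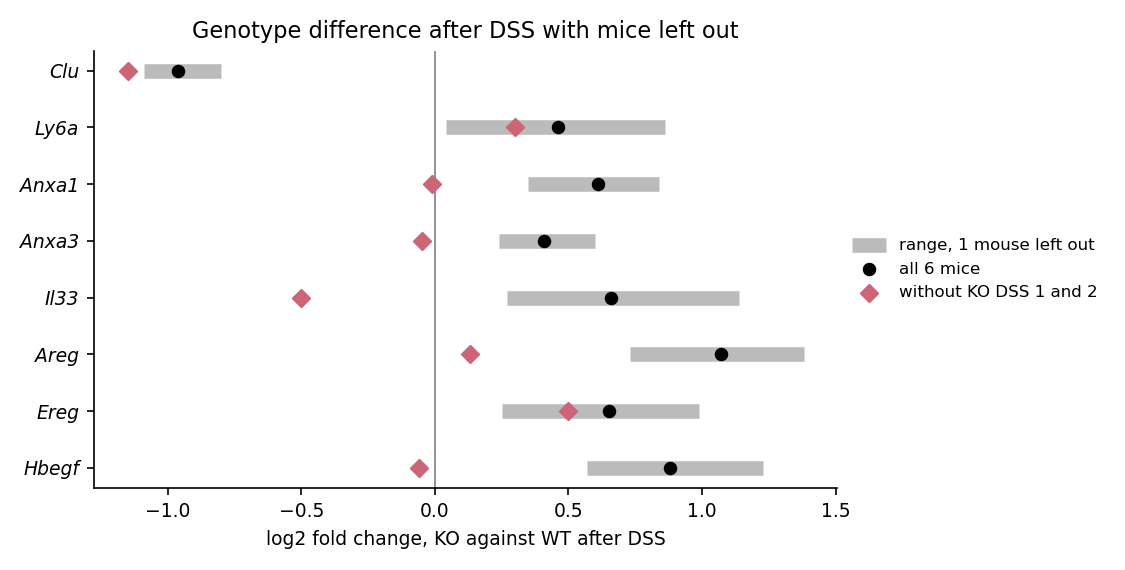
Log2 fold change of KO against WT after DSS (x axis) for the 8 genes, from all 6 mice (black points), with each mouse left out in turn (grey bars, range) and without KO mice 1 and 2 (red diamonds), whose libraries had the highest mitochondrial shares. Clu is negative in every case, from -1.15 to -0.80, and the diamonds of Anxa1, Anxa3, Areg and Hbegf lie between -0.06 and 0.13. The diamonds rest on KO mouse 3 alone against the WT mice.

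The order of the mice after DSS was similar in 5 of the genes: KO mouse 2 and then KO mouse 1 were the highest in Anxa1, Anxa3, Il33, Areg and Hbegf. Clu had the reverse order of genotypes, with WT mouse 2 the highest and KO mouse 3 the lowest. The ratio of Areg reads to Clu reads, which is taken within a library and does not depend on scaling between libraries, put this difference in a number for each mouse, as a description, since both genes were chosen with their values known. It was 6.88, 5.80 and 4.96 in the 3 WT mice after DSS and 23.1, 33.8 and 14.4 in the 3 KO mice. KO mouse 3, whose Areg was inside the WT range, thus still had a ratio above that of every WT mouse. Without DSS the ratio was 1.81, 3.02, 1.64 and 2.77 in WT and 3.63, 8.74, 8.07 and 1.19 in KO, and the genotypes overlapped through KO mouse 4.

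**Figure D3:**
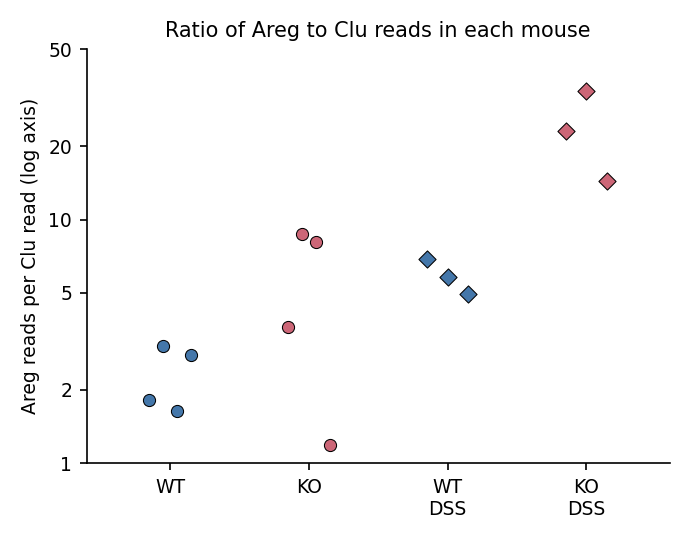
Reads of Areg divided by reads of Clu in each mouse (log axis), with circles without DSS and diamonds after DSS, blue for WT and red for KO. After DSS the KO mice lie at 14.4 to 33.8 and the WT mice at 4.96 to 6.88, and without DSS the groups overlap.

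All 8 genes were higher in the mice after DSS than in the mice without DSS. The contrast averaged both genotypes, so it does not use the difference that chose the genes, and each of the 8 passed an adjusted p under 0.05 (edgeR over 16370 genes). Such calls were common: 28.7% of all genes were called higher and 29.5% lower. The 2 groups come from separate experiments and tables, so DSS and experiment cannot be told apart. The median log2 fold change of the 8 was 2.44, against -0.03 over all genes. The 8 epithelial markers were also higher after DSS without overlap, with sums of 9385 to 13320.2 CPM without DSS and 20155 to 25252 CPM after DSS. The part of this rise in the DSS values of the 8 genes was not tested.

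Hbegf and Areg had the largest fold changes. Hbegf was 17.3-fold higher (log2 fold change 4.12, SE 0.27, adjusted p = 2.0e-07), from 7.79 to 18.5 CPM in the 8 mice without DSS to 84.8 to 355 CPM in the 6 mice after DSS. Areg was 15.1-fold higher (3.92, SE 0.39, adjusted p = 8.5e-06), from 2.08 to 17.2 to 53.9 to 234 CPM. Ereg was 7.61-fold higher (2.93, SE 0.35, adjusted p = 7.2e-06), a log2 value within its SE of that of Ly6a, and its lowest mouse after DSS at 2.03 CPM was above its highest mouse without DSS at 1.31 CPM. In these ligands no mouse after DSS overlapped with a mouse without DSS. The share of all genes that separated in this way was not counted, so the separation is a description only.

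Of the regenerative genes, Ly6a was 6.80-fold higher (log2 fold change 2.77, SE 0.38, adjusted p = 7.2e-05), Clu 4.30-fold (2.11, SE 0.18, adjusted p = 2.4e-07) and Anxa1 4.05-fold (2.02, SE 0.22, adjusted p = 1.0e-05). Anxa3 rose less, 2.02-fold (1.01, SE 0.17, adjusted p = 1.7e-04). The epithelial marker sum also rose, from medians of 11231 CPM in WT and 11035 CPM in KO without DSS to 22227 and 23669.8 CPM after DSS. In Clu, Anxa1 and Anxa3 the mice with and without DSS did not overlap, whereas in Ly6a WT mouse 1 after DSS, at 283 CPM, was below the highest mouse without DSS at 308 CPM. This too is a description, as the share of all genes without such overlap was not counted. Il33 was 1.94-fold higher (0.96, SE 0.39), with an adjusted p of 0.0448 and overlap of the mice. Its adjusted p rose above 0.05 in 15 of 22 alternatives, reached 0.140 without WT mouse 2 after DSS, and was 0.521 without KO mice 1 and 2, so this call rests on few reads and few mice. The other 7 genes passed under every alternative that could include them.

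Anxa1 and Hbegf have gene models of different lengths in the 2 tables (2911 and 2608 bases, and 4834 and 2373 bases, without and after DSS), so their reads may have been counted on different bases, and what this adds to their DSS values was not tested. For Clu, Ly6a, Anxa3, Il33, Areg and Ereg the lengths were equal. Scaling by library size alone moved the median of all genes to -0.33 and the 8 genes with it, to 0.64 for Il33 (adjusted p = 0.155), 0.71 for Anxa3 and 1.81 for Clu, and 7 of 8 were still called. Within each genotype, given as values without a test, the log2 fold change in WT and KO was 2.23 and 1.98 for Clu, 2.92 and 2.62 for Ly6a, 1.68 and 2.35 for Anxa1, 0.83 and 1.19 for Anxa3, and 0.51 and 1.40 for Il33. For the ligands it was 3.59 and 4.24 for Areg, 2.37 and 3.48 for Ereg, and 3.93 and 4.31 for Hbegf. Whether the DSS change differed between genotypes was not tested.

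**Figure D4:**
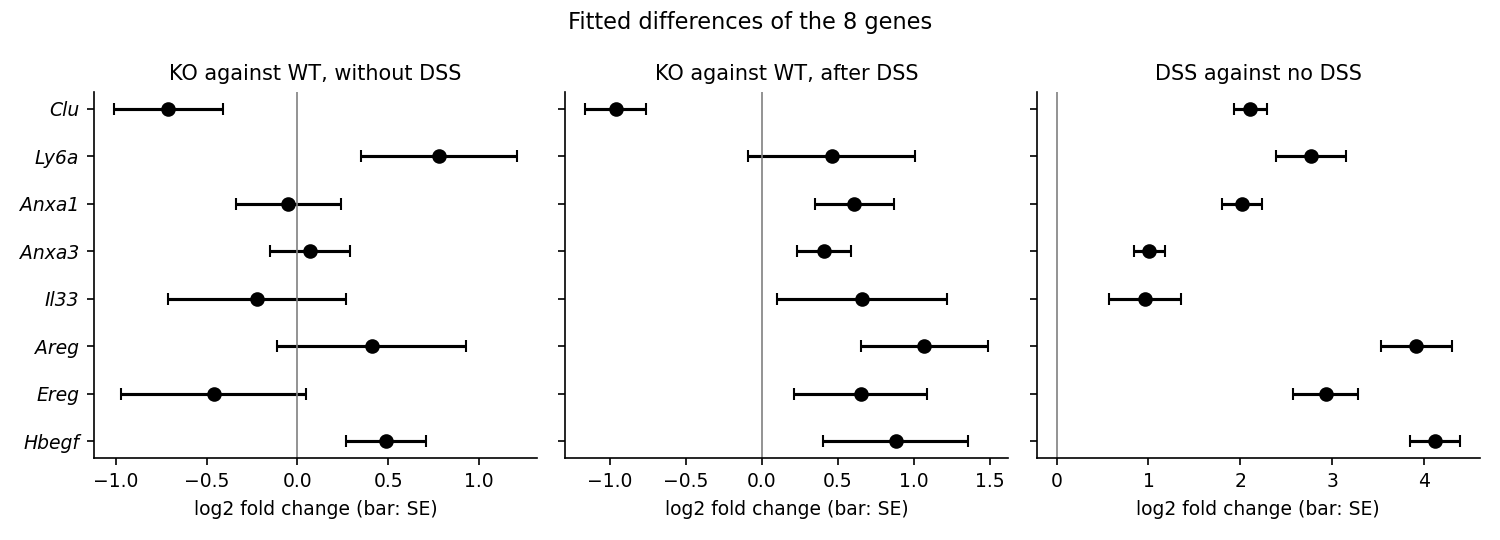
Fitted log2 fold changes (points) with SE (bars) of the 8 genes for KO against WT without DSS (8 mice), KO against WT after DSS (6 mice) and DSS against no DSS over both genotypes (14 mice). Clu lies below 0 in both genotype panels (-0.71 and -0.96), and all 8 genes lie above 0 in the DSS panel, from 0.96 for Il33 to 4.12 for Hbegf.

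Compared per kilobase of gene model, the order of the genes changed with DSS. In WT mice without DSS, Ly6a was at 97.9 ± 45.3 CPM per kb (SD, n = 4), followed by Anxa3 at 31.5 ± 11.4, Anxa1 at 23.9 ± 10.3, Areg at 5.40 ± 1.70, Hbegf at 1.89 ± 0.314, Clu at 0.826 ± 0.0817, Ereg at 0.247 ± 0.112 and Il33 at 0.226 ± 0.129. Anxa3 and Anxa1, and Ereg and Il33, differed by less than their SDs. In WT mice after DSS, Ly6a was at 739 ± 450.1 CPM per kb (SD, n = 3), and Anxa1 (85.7 ± 15.5), Areg (65.0 ± 18.0), Hbegf (58.6 ± 24.6) and Anxa3 (56.1 ± 5.41) followed in that order with neighbours whose SDs overlapped, far above Clu (3.88 ± 0.785), Ereg (1.29 ± 0.708) and Il33 (0.321 ± 0.179). In KO mice after DSS, Clu at 2.00 ± 0.241 CPM per kb and Ereg at 2.03 ± 0.440 were level, where in WT mice Clu was the higher. The place of Hbegf in this order depends on its gene length, which is 4834 bases in the table without DSS and 2373 bases in the table after DSS, and that of Anxa1 to a smaller extent.

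The 3 ligands sit in more than one place in the genome. Ereg (chr5:91074622-91093646) and Areg (chr5:91139599-91148432), both on the plus strand of GRCm38, are neighbours 45952 bases apart, flanked by the ligand genes Epgn and Btc, and Hbegf lies on another chromosome. Of the flanking genes, Btc had a log2 fold change of 0.32 with DSS (SE 0.13, adjusted p = 0.0522), which did not pass, and Epgn was too low to test. Clu is on chr14:65968483-65981547, Ly6a on chr15:74994877-74998031, Anxa1 on chr19:20373428-20390944, Il33 on chr19:29925114-29960718 and Anxa3 on chr5:96793339-96845966, all protein-coding genes. Annotated genes overlap Anxa1 and Ereg on the opposite strand and Anxa3 on the same strand, and none of these had more than 15 reads in a mouse.

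Promoter sequences were given by RefSeq (GRCm38.p6) for Areg, Anxa1 and Il33, and the 250 bases before the start site of Areg and Anxa1, which both rose after DSS without overlap of the mice, are shown with searched motifs in capitals. The motifs were the TATA box and those of factors downstream of ERK, cyclic AMP or YAP signalling, searched on both strands from 250 bases before to 50 bases after the start: AP-1 (TGANTCA), CRE (TGACGTCA), TEAD (GGAATG) and the TATA box (TATAAA). Of 32851 promoters, 7.81% held the AP-1 letters, 1.79% the CRE letters, 14.7% the TEAD letters and 13.6% the TATA letters. None of these motifs overlapped another in the sequences shown. The Anxa1 stretch lies inside the range of the gene given above, so the RefSeq start site used here is not the outer end of that gene model.
Areg promoter (chr5:91139349-91139598, plus strand): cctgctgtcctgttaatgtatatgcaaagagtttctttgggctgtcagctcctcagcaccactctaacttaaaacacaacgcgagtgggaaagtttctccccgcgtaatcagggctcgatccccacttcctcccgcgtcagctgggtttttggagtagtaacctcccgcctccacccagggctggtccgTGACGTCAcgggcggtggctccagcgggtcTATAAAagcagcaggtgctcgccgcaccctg
Anxa1 promoter (chr19:20390672-20390921, minus strand): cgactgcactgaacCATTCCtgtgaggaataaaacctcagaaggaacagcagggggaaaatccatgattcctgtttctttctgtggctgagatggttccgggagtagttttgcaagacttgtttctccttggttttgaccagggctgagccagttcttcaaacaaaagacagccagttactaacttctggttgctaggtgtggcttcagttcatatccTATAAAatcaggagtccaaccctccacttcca
The Areg promoter held a CRE 61 bases and a TATA box 31 bases before the start, and neither AP-1 nor TEAD letters. The Anxa1 promoter held TEAD letters, on the other strand, 236 bases before the start and a TATA box 32 bases before it. Each of the 2 Il33 promoters held 1 TEAD and 1 TATA match and no CRE. These matches say only which letters are present.

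Other regenerative epithelium genes were mostly higher after DSS too. Of 24 listed, 21 were tested, 17 were higher, 2 were lower (Gja1 and Cd44) and 2 did not pass, with a median log2 fold change of 1.40, where 28.7% of all genes were higher. Ly6d and Basp1 passed the filter only through the mice after DSS, so the call of Ly6d, among the 17, is no support for a change of the list. Among those of smallest p, S100a11 rose by 1.74 (SE 0.14, adjusted p = 2.1e-07), Il1rn, which encodes the interleukin-1 receptor antagonist, by 1.95, and S100a6 by 1.40. Between genotypes edgeR called none of the list in either experiment. Without DSS, Ly6e came nearest (log2 difference 0.57, SE 0.13, edgeR adjusted p = 0.779) and DESeq2 called it (adjusted p = 0.0112). After DSS 17 of the 21 had higher fitted values in the KO (median 0.34). The count was only 7 of the 21 without KO mice 1 and 2, with KO mouse 3 as the only KO mouse. Anxa8, Ly6d and Plaur had an unadjusted p under 0.05, as 7.23% of all genes had, with log2 differences of 0.80, 1.40 and 1.14, each with an edgeR adjusted p of 0.646. DESeq2 called Anxa8 (adjusted p = 0.0451) and Plaur (adjusted p = 0.0499), edgeR called Plaur without KO mouse 3 (1.44, adjusted p = 0.0298), and without KO mice 1 and 2 the differences of the 3 genes were 0.49, 0.64 and 0.26.

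The remaining EGF ligands had smaller or opposite changes than Areg, Ereg and Hbegf, with 1 higher, 2 lower and 1 (Btc) that did not pass, where 28.7% of all genes were higher and 29.5% lower. The count of those higher was 0 to 3 over the alternatives, with 3 without WT mouse 1 after DSS. Of 8 listed, 4 were too low to test (Epgn and Nrg1 to Nrg3). Egf fell by 1.31 on the log2 scale (SE 0.19, adjusted p = 3.2e-05), Nrg4 fell by 0.98 (SE 0.21, adjusted p = 0.00102), and Tgfa was 0.22 higher (SE 0.07, adjusted p = 0.0158), a value that was -0.09 under library-size scaling and was not called without KO mice 1 and 2. Of the receptors, Egfr, at 37.5 to 43.0 CPM in the group means, had a log2 fold change of 0.10 (SE 0.11, adjusted p = 0.461), Erbb2 was 0.42 higher (SE 0.09, adjusted p = 6.8e-04, but 0.12 under library-size scaling with an adjusted p of 0.328), Erbb3 was at 0.22 (adjusted p = 0.0878) and Erbb4 was at or near 0. Of 4 shedding genes, Adam10 was 0.29 higher (adjusted p = 4.5e-04, and -0.01 under library-size scaling), and Adam17, Rhbdf1 and Rhbdf2 did not pass, whereas under library-size scaling 0 of the 4 were higher and 3 were lower.

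Of 11 genes that ERK switches on, 7 were higher and 4 lower after DSS, where 28.7% of all genes were higher and 29.5% lower, so that the lower count is near the share of all genes. Egr1 rose by 5.13 (SE 0.32, adjusted p = 1.4e-07), Fos by 4.56 (SE 0.20, adjusted p = 2.9e-10) and Ier3 by 1.45, while Etv4, Etv5, Myc and Dusp4 were lower (Etv4 fell by 1.56, adjusted p = 5.6e-06). Fosl1, among the 7, passed the filter on low counts only through the mice after DSS (group means of 0.116 and 0.453 CPM in WT and KO without DSS, 5.58 and 9.93 CPM after DSS), so its call is no support for a change of the list. Of 7 feedback inhibitors of the receptor, Errfi1 (1.36), Spry2 (0.48) and Spry4 (1.17) were higher and Lrig1 (-1.20) and Spry1 (-0.55) lower (2 higher and 4 lower under library-size scaling), counts that are also near the shares of all genes. Between genotypes edgeR called none of either list with all mice and the filter on low counts. Without DSS 9 of 10 tested ERK targets were higher in the KO by their fitted values (median 0.26), where 49.5% of all genes were. Ier3, among the 9, was at 0.00, and the count was 8 to 9 over the alternatives. Dusp4 was at 0.50 (edgeR unadjusted p = 0.0368), and 3.67% of all genes had an unadjusted p under 0.05. After DSS Etv4 (-1.05), Etv5 (-0.56) and Lrig1 (-0.56) were lower and Phlda1 (0.88) higher in the KO at an unadjusted p under 0.05, which 7.23% of all genes had, each with an adjusted p of 0.646 or above. Without the filter edgeR called Lrig1 (adjusted p = 0.0179) and Etv4 (adjusted p = 0.0370), and without KO mouse 3 it called Lrig1 (-0.73, adjusted p = 0.0415), Phlda1 (1.19, adjusted p = 0.0190) and 1 further feedback inhibitor, which was higher. Without KO mice 1 and 2 the differences were -0.29 for Lrig1, -0.74 for Etv4, -0.41 for Etv5 and -0.08 for Phlda1.

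Of 15 YAP pathway genes, 13 were tested and 4 were higher and 3 lower after DSS (2 and 4 under library-size scaling), shares near the 28.7% and 29.5% of all genes. Ccn1 rose by 3.11 (SE 0.39, adjusted p = 3.0e-05), while Tead2 fell by 2.35 (SE 0.27, adjusted p = 4.2e-06), Ptpn14 fell by 2.21 and Tead1 fell by 0.57. Yap1 itself was at -0.09 (SE 0.08, adjusted p = 0.343). Between genotypes none of the 13 was called. After DSS Ptpn14 (-1.33, edgeR adjusted p = 0.646) and Tead2 (-1.26, adjusted p = 0.668) had an unadjusted p under 0.05, as 7.23% of all genes had. Without KO mice 1 and 2 they were at -1.15 and -0.43. Receptors for the products of Clu, Anxa1 and Il33 were low or not called higher with all mice and the filter on low counts. Of the clusterin receptors, Lrp8 fell by 1.42 and Vldlr by 1.02, where 29.5% of all genes were called lower. Over the alternatives 0 to 1 of these receptors were called higher and 1 to 2 lower. Fpr1, Fpr2 and Fpr3 had too few reads for a test. Il1rl1, the receptor of IL-33, also had too few, and its partner Il1rap was at -0.05 (adjusted p = 0.734), although it was called lower under library-size scaling. Of 5 prostaglandin genes, 2 were higher and 1 lower after DSS, where 28.7% of all genes were higher and 29.5% lower. Over the alternatives 1 to 2 were higher and 1 to 2 lower. Hpgd was 0.73 higher and Ptges fell by 0.83, and the other gene called higher was Ptgs2. The group means of Ptgs2 were under the floor of 3 reads without DSS (0.0251 and 0.0620 CPM in WT and KO) and at 0.657 and 1.10 CPM after DSS. Since Ptgs2 passed the filter only through the mice after DSS, no fold is given and its call is no support for a change of the list. It was not called without KO mice 1 and 2. Between genotypes edgeR called none, and without DSS Ptgs1 was at 0.92 (SE 0.23, adjusted p = 0.879), with an unadjusted p under 0.05, as 3.67% of all genes had.

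**Figure D5:**
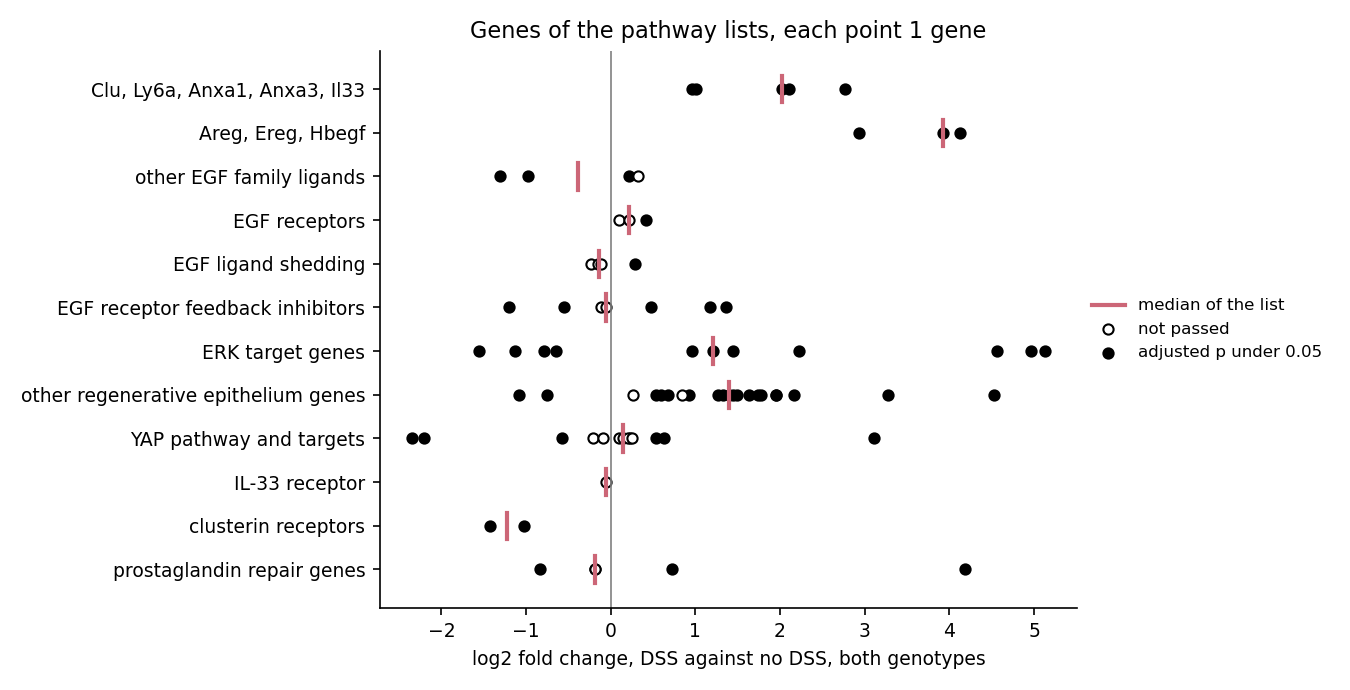
Log2 fold change of DSS against no DSS, over both genotypes, for each tested gene of the pathway lists (x axis, 1 point a gene), filled where the adjusted p was under 0.05, with the median of each list as a red line. Clu, Ly6a, Anxa1, Anxa3 and Il33 lie between 0.96 and 2.77 and Areg, Ereg and Hbegf between 2.93 and 4.12, and the other EGF family ligands lie between -1.31 and 0.32.

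Within groups, some of the genes varied together from mouse to mouse and others did not. Over the 14 mice, with each group's mean removed so that 10 degrees of freedom remain, Pearson's r of log2 CPM was 0.95 for Anxa1 and Anxa3, 0.70 for Ly6a and Anxa1, and 0.69 for Areg and Hbegf. Clu had an r between -0.20 (with Ly6a) and 0.53 (with Il33). Among the 6 mice after DSS alone its r was 0.87 with Il33, 0.72 with Areg, 0.63 with Anxa3, 0.55 with both Anxa1 and Hbegf, 0.26 with Ly6a and 0.17 with Ereg, and among the 8 mice without DSS it was -0.44 to 0.42. Areg and Ereg, the neighbours on chromosome 5, had an r of 0.09. These values come from the same libraries for every gene, share their scaling and carry no test.

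The 2 genes of highest r with each of the 8, out of 14245, were picked for that r. They were Pggt1b (0.94) and Zfp970 (0.93) for Clu, Ly6c1 (0.96) and Lss (0.94) for Ly6a, Ly6g (0.96) and Rab32 (0.95) for Anxa1, and Gk (0.97) and Gm45397 (0.95) for Anxa3. For the others they were Gm10277 (0.92) and Zfp518a (0.89) for Il33, Sgsm3 (0.95) and Srpk1 (0.91) for Areg, Wdfy1 (0.89) and Abcc5 (0.87) for Ereg, and Piezo2 (0.91) and Lemd3 (0.91) for Hbegf. Without the 2 mice farthest from the median of the member, r was 0.68 to 0.96.

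Markers of other cells were set beside the 8 genes. The 6 neutrophil markers summed to 6.13 to 23.2 CPM without DSS, 51.3 to 110.0 CPM in WT after DSS and 102 to 269.5 CPM in KO after DSS. Most of this was Ly6g (148 CPM on average in KO after DSS), whereas S100a8 and S100a9 were at 9.05 and 11.9 CPM there and at 0.991 and 2.00 CPM in WT after DSS, Cxcr2 was at 0.811 CPM on average in KO after DSS, and Mpo was at 0 in both groups after DSS. The within-group r of this sum was 0.95 with Anxa1, 0.86 with Anxa3 and 0.78 with Ly6a, and that of the epithelial sum was 0.89, 0.80 and 0.71 (14 mice). Since the neutrophil sum is mostly Ly6g, picked above for its r of 0.96 with Anxa1, its r with Anxa1 is no separate result. Whether Ly6g stands for neutrophils here was not tested. The 10 interferon response genes, none at 0, summed to 327 to 821 CPM without DSS, and after DSS to 482, 1264 and 1921 CPM in WT and 1144, 611 and 1374 CPM in KO, so that WT mouse 1, the lowest in Ly6a after DSS, was also the lowest here. The r of that sum was 0.73 with Ly6a, -0.54 with Areg and -0.79 with Hbegf. The 5 crypt stem cell markers (Lgr5, Ascl2, Smoc2, Axin2 and Rnf43), none at 0, summed to 129 to 193 CPM without DSS, 55.5 to 82.3 CPM in WT after DSS and 26.5 to 62.5 CPM in KO after DSS, with an r of -0.74 with Anxa1 and 0.05 with Clu. The part of these cells in the values of the 8 genes was not tested.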

How the data were processed

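Colon RNA from 14 mice (TRIzol, NEBNext Ultra Directional libraries) was sequenced for the authors by the company Novogene. The authors deposited 2 tables of raw read counts per gene, 1 per experiment, together with FPKM values. Submitters' processing notes name HISAT2 and DESeq2 without role or version. The counting tool, its strand setting and the genome build are not given in the sources used here. The deposited FPKM values (scaled by gene length and library size by the authors) of the 8 mice without DSS were used as an alternative only, and 6 FPKM columns after DSS were not used. Columns of the authors' own comparisons (group means, fold changes, p-values) were not used. The tables list 55889 genes without DSS and 54721 after DSS, of which 54378 are in both, with equal gene lengths in 96.8%. Rows that name no gene, 0.25% and 0.133% of reads, were left out.

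Genotypes were compared within each table (edgeR 4.0.16 in R 4.3.3: filterByExpr with a minimum count of 10 and minimum total of 15, TMM, quasi-likelihood fit, Benjamini-Hochberg adjustment over all genes, threshold 0.05), and DSS over both tables with 4 group terms, as the average of both genotypes. A step on simulated counts checked the fits. Since the contrast after DSS chose the genes, it carries no p for them. Intervals are SDs between mice or SEs of the fit. Each SE is the size of the log2 fold change divided by the square root of the quasi-likelihood F. The methods describe littermates matched for age and sex, but the labels do not tie mice to litters, so p-values measure the spread between these mice. CPM used TMM factors of all 14 libraries, correlations were taken on log2 CPM (prior count 2), and a count of 3 reads was taken as the floor, for counting error only.

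The 8 genes and all lists were chosen with earlier results of these data known. From each pathway list the up to 4 genes with the smallest unadjusted p were named, and those called against the direction of the rest of a list were named after their values were seen. A gene that this rule would name is not reported here. Alternatives were DESeq2 1.42.0, limma-voom (limma 3.58.1), RLE factors, filters, limma on log2(FPKM + 1) and log2(FPKM + 0.1), protein-coding genes only, the replicate block, and each mouse left out. Added after seeing the data were genes of equal length, library-size scaling, and the fits without KO mice 1 and 2 after DSS. Promoters of Areg, Anxa1 and Il33 were in the RefSeq table (GRCm38.p6), and 3′ UTRs were from GENCODE vM21.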

Additional observations from a re-analysis of the deposited data

Results flagged for a closer look

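Ereg in the 4 WT mice without DSS held a sample far from the others. WT mouse 2 was at 0.331 CPM (6 reads) and the other mice at 1.19 to 1.31 CPM, so that the gap to the nearest mouse was 0.877 of the group's range, above Dixon's critical value for 4 samples. Of the 16 groups of 4 mice examined this was the only 1, and chance flags about 1 in 20. Without this mouse the log2 difference between genotypes was -0.75 in place of -0.46.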

How the results depend on the processing

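Without DSS, the 3 genes called higher and 0 called lower in the KO became 13 and 11 with DESeq2, and 7 and 4 without a filter, with 0 higher at 10 or more reads in every mouse, 1 lower with limma on log2(FPKM + 1) and 2 on log2(FPKM + 0.1). Leaving out each mouse in turn gave 3 to 4 higher and 0 to 1 lower (1 without WT mouse 2). After DSS, 2 higher and 0 lower became 44 and 15 with DESeq2, and 32 and 14 without a filter, with 0 higher at 10 or more reads. Over the mice left out in turn there were 0 to 54 higher and 0 to 39 lower (54 and 39 without KO mouse 3). The cause of these shifts was not tested.

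Some directions turned. Without DSS, Anxa1 was at 0.04 with the replicate block and with limma on either FPKM scale, and between -0.23 and 0.16 over the mice left out. Anxa3 ran from -0.08 to 0.24, Areg from -0.14 to 0.74 and Il33 from -0.54 to 0.07. Leaving out KO mice 1 and 2 after DSS left KO mouse 3 as the only KO mouse. Phlda1 then went from 0.88 to -0.08, Il33 from 0.66 to -0.50, Hbegf from 0.88 to -0.06, Anxa1 from 0.61 to -0.01 and Anxa3 from 0.41 to -0.05. With library-size scaling, DSS called 2368 genes higher and 7733 lower, with Tgfa at -0.09 and Adam10 at -0.01.

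Same-numbered mice without DSS had correlations of -0.19 to 0.15, and 1 of the 4 pairs correlated best with its own number. The labels do not say what a number stands for, so the numbers were not taken as pairs. With the replicate block Clu was at -0.76, Ly6a at 0.78 and Hbegf at 0.46, with 0 of the 8 genes called. No paired analysis was possible after DSS because the count columns match a group but no single labelled mouse, and so carry no pairing. Clu, Ly6a, Anxa3 and Areg were called higher after DSS in all 23 alternatives, and Anxa1, Ereg and Hbegf in all 22 that held them. Depth limits Il33 and Ereg most, at 3 to 26 reads without DSS.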
